A study of Mus musculus with 6 samples.

Results

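The Kruppel-like factors examined here are 7 genes, Klf2, Klf3, Klf4, Klf6, Klf7, Klf10 and Klf13, measured by 23 of the 45037 probe sets tested. They were taken by exact gene symbol in the platform annotation, and every probe set of each gene is described. The family was chosen by its log2 differences between E47 and control arrays, so those values are given as a description, with no p-value for a member.

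Kruppel-like factors are transcription factors that share zinc fingers at the C-terminus and bind GC-rich and CACCC sequences, while their other parts recruit activators or repressors. In T cells Klf2 is known for keeping naive cells quiescent and for driving the genes of lymph node entry and exit, and it is shut down when the antigen receptor is engaged. Klf4 restrains T cell division, Klf3 represses transcription with CtBP partners, Klf10 is an early gene of TGF-β signalling, and Klf13 acts on the chemokine gene Ccl5 late in activation.

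The 6 arrays hold RNA of mouse CD4+ T cells, 3 from cells with an E47-ER retrovirus and 3 from cells with a control construct named bHLH-ER. E47 is a basic helix-loop-helix factor, a product of the Tcf3 gene, that binds E-box sequences. ER stands for the part of the estrogen receptor that binds its ligand, and a protein fused to it moves to the nucleus when tamoxifen is given. MACS-isolated CD4+CD25- cells from lymph nodes of C57BL/6 mice were kept for 2 days on plates coated with anti-CD3 (2 µg/ml) and anti-CD28 (1 µg/ml), with 200 U/ml of IL-2 and 5 ng/ml of TGF-β1, and virus was added on day 1. Sorted CD4+Thy1.1+ cells of both groups then had 6 hours of 1 µM tamoxifen with the antibodies and IL-2. Each of 3 experiments gave 1 control and 1 E47 sample, from pools of 3, 3 and 4 mice that were 7, 8 and 9 weeks old. The construct came from a retrovirus in cultured cells, no sample lacked tamoxifen, and no source used here says what bHLH-ER contains.

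All values below are log2 intensities unless a fold is named, and a difference is E47 minus control within an experiment. Probe sets differ in how brightly they report their transcript, so levels are compared between arrays and never between genes. In these bulk samples fewer cells of a type and less RNA per cell cannot be told apart. The median intensity of the arrays lay between 34.3 and 35.4. All 7 matched CD4 T cell markers (Cd28, Cd3d, Cd3e, Cd3g, Cd4, Cd5 and Zap70) and all 7 Treg markers lay above the array median on every array. So did 2 of 2 CD8 T cell markers, 1 of 3 NK, 1 of 5 B cell, 1 of 7 myeloid and 2 of 6 endothelial or stromal markers. In limma's paired fit 0 of the 37 marker genes passed an adjusted p of 0.05 between E47 and control, where 0.271% of all probe sets did. With so low a share over all probe sets, 0 of 37 says little about the markers.

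The start regions of these genes were searched for E-boxes, the class of sequence that E47 binds (CANNTG, which reads the same pattern on both strands). E-boxes differ in their 2 middle letters, and which of the forms below E47 binds was not tested. DNA further from the start was not searched. RefSeq start regions on GRCm38.p6, from 250 bases before to 50 after the transcription start, were matched for 6 of the 7 genes, all but Klf10. The regions of Klf4, Klf2 and Klf6 are shown because these genes had the largest higher value, the largest spread between experiments and the most even lower values on the arrays. Capitals mark E-boxes and, in Klf2, a MEF2 site (CTA, then A or T in a run, then TAG, a form that is the same on both strands). The Klf4 region lies at chr4:55532426-55532725 on the minus strand, that of Klf2 at chr8:72318812-72319111 on the plus strand and that of Klf6 at chr13:5861239-5861538 on the plus strand. Each is written 5′ to 3′ along its gene.
Klf4 promoter: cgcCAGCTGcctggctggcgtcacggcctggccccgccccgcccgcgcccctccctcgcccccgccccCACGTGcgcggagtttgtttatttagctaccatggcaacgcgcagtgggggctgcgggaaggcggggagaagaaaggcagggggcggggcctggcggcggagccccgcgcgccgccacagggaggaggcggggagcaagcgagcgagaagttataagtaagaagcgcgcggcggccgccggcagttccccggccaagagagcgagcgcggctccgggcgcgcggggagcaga
Klf2 promoter: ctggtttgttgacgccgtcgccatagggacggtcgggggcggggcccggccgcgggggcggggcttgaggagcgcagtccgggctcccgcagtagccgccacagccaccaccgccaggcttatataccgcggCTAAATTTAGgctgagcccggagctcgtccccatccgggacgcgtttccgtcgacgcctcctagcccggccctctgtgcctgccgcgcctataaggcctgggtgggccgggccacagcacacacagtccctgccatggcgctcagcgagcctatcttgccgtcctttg
Klf6 promoter: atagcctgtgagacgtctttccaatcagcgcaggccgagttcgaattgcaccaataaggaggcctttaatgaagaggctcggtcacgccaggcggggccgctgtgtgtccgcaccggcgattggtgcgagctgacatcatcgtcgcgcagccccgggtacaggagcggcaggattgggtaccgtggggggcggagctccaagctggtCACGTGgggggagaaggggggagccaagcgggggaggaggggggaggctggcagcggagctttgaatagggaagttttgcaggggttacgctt
The Klf4 region held 2 E-boxes, CAGCTG at position -247 and CACGTG at -182, counted from the start site. The 1 E-box of Klf6 was CACGTG at -43, and Klf2 and Klf7 had none in this window. Klf13 had CAGATG (or CATCTG on the other strand) at -44, and Klf3 had CAAGTG at -116 and CATGTG at 23.

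At least 1 E-box was present in 72.3% of all 32851 such regions in the table, so 4 of 6 is a share near that of any promoter. CAGCTG occurred in 16.3% of regions, CACGTG in 7.15%, CAGATG or its complement in 17.2% and CACCTG or its complement CAGGTG in 20.2%. No member region held the last. The MEF2 letters of Klf2, at -118, occurred, in this or another allowed form, in 183 of the 32851 regions (0.557%). MEF2 factors are the known route by which the kinase ERK5 induces Klf2.

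GC boxes (GGGCGG or CCGCCC), which SP and Kruppel-like factors can bind, were in all 6 member regions, against 35.7% of all regions. CACCC boxes (CCACCC or GGGTGG) were in 4 of the 6, against 31.5%. In Klf3 the E-box at -116 shares bases with the CACCC boxes at -121 and -111. The member regions had a GC content of 58.3% (Klf7) to 76.7% (Klf3), above the median of 52.7% over all regions, and GC-rich motifs are found more often in GC-rich sequence. These are matches of letters, not measured binding.

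**Figure D1:**
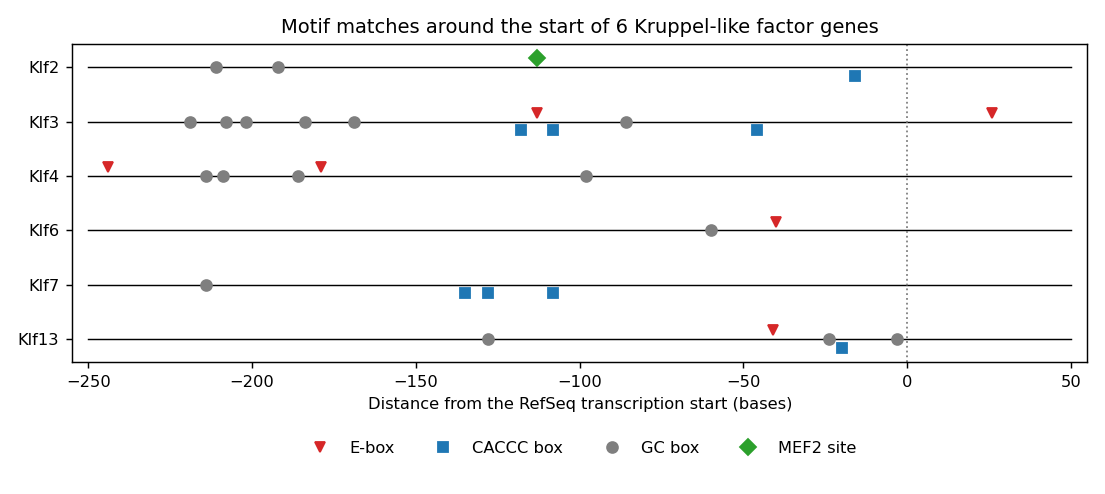
Matches of 4 motifs along the RefSeq start regions of 6 Kruppel-like factor genes, plotted by distance in bases from the transcription start (dotted line). E-boxes are found in Klf3, Klf4, Klf6 and Klf13, GC boxes in all 6, and the MEF2 site in Klf2 alone of the 6.

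Klf4 was the member with the largest difference. Klf4 restrains the division of T cells and is better known as a pluripotency factor. Its brighter probe set (1417394_at) read 6.55, 6.69 and 6.56 on control arrays 1 to 3 and 7.92, 8.42 and 8.15 on E47 arrays 1 to 3. Every E47 array was above every control array, and the groups did not overlap. The differences of the 3 pairs were 1.37, 1.73 and 1.59, a mean of 1.56 ± 0.18 (SD, n = 3 pairs), or 2.95-fold.

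The other Klf4 probe set (1417395_at) read 6.04, 6.14 and 5.82 on the control arrays and 6.88, 7.18 and 7.15 with E47. It separated the groups in the same way, with a mean difference of 1.07 ± 0.25 (SD, n = 3 pairs), or 2.10-fold. The 2 Klf4 probe sets were the only ones of the 23 past an adjusted p of 0.05 in the paired fit, where 0.271% of all probe sets passed. This count depended on the setting. Without replicate 2 or without replicate 3 it was 0, with 16 added before log2 it was 1, and with a trended, robust variance it was 3. In unpaired fits with 1 array left out it was 0 or 1. Since this contrast was known when the family was chosen, these counts support nothing. Under 17 other settings for the brighter and 16 for the dimmer probe set the differences stayed between 1.42 and 1.68 and between 0.91 and 1.19.

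Klf2, the quiescence and trafficking factor, was higher in E47 in each experiment, but its level depended more on the experiment. Its 1 probe set (1448890_at) read 6.43, 8.68 and 6.19 on the control arrays and 7.32, 8.96 and 7.39 with E47. Both arrays of experiment 2 were higher than the other 4, so the groups overlapped. The differences of the pairs were 0.89, 0.28 and 1.20, a mean of 0.79 ± 0.47 (SD, n = 3 pairs), or 1.73-fold. The smallest difference was in experiment 2, where the control level was highest. With single arrays left out and no pairing, the Klf2 difference ran from 0.26 (without E47 replicate 2) to 1.58 (without control replicate 2).

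**Figure D2:**
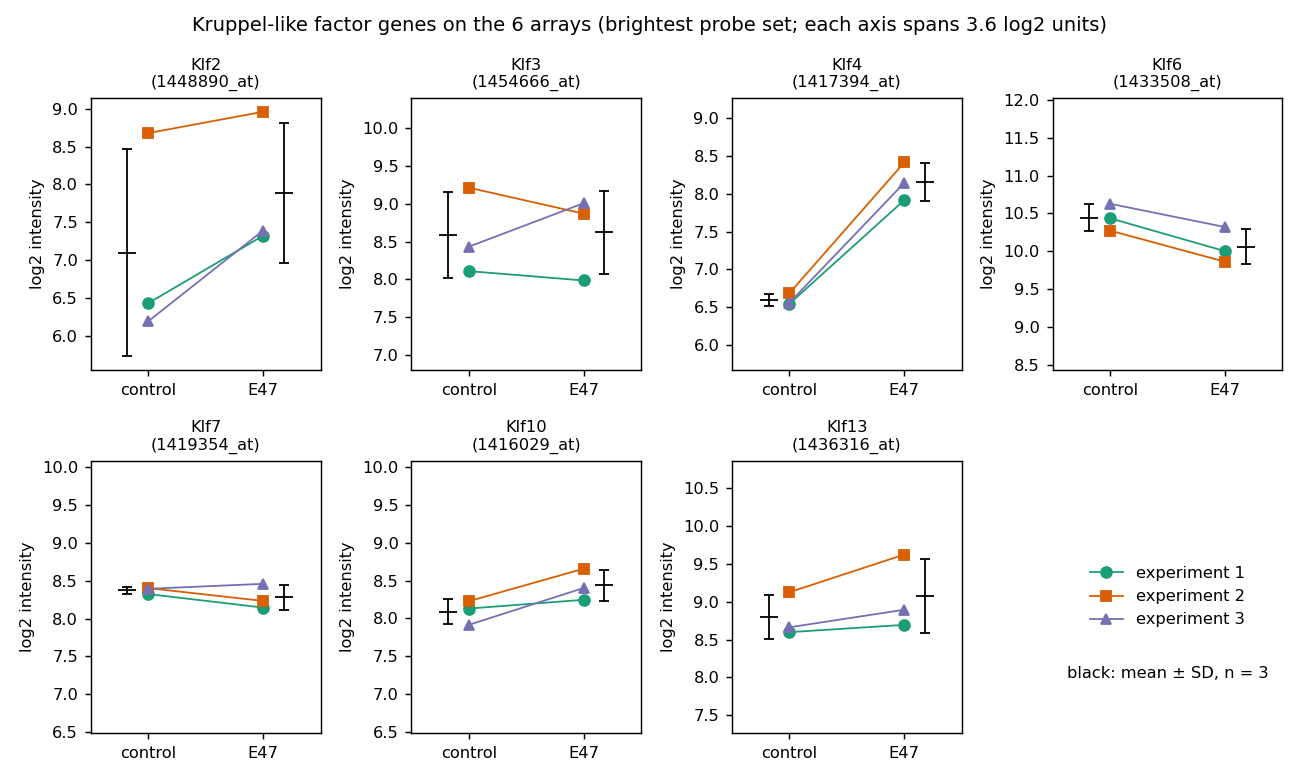
Log2 intensity of the brightest probe set of each gene in control and E47 samples, with lines joining the arrays of an experiment and black bars for the mean ± SD of 3 arrays; each panel spans the same 3.6 log2 units. Klf4 is higher on all 3 E47 arrays, Klf2 is set apart in experiment 2, and Klf6 is lower in all 3 pairs.

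Klf10 and Klf13 had smaller differences. Klf10, induced early by TGF-β and known to support Foxp3 expression, was measured by 1416029_at at 8.13, 8.23 and 7.91 on the control arrays and 8.25, 8.66 and 8.40 with E47. The lowest E47 value was just above the highest control value, so the groups did not overlap. The mean difference was 0.34 ± 0.20 (SD, n = 3 pairs), with 0.12, 0.43 and 0.49 in the pairs.

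The brightest Klf13 probe set (1436316_at) read 8.60, 9.13 and 8.66 on the control arrays and 8.69, 9.62 and 8.89 with E47. Both arrays of experiment 2 were again the highest of their group, and the groups overlapped. Its difference was 0.28 ± 0.20 (SD, n = 3 pairs), and that of 1432543_a_at was 0.35 ± 0.35. Both were higher in E47 in every pair, with the largest difference in experiment 2 (0.50 and 0.73). The third Klf13 probe set (1456030_at) gave 0.52, -0.28 and -0.36 in the pairs and correlated little with the others, while the first 2 correlated at 0.98 over the 6 arrays. Without replicate 2 the mean of the remaining pairs of 1436316_at was 0.16.

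Klf6 was lower in E47. Klf6 is a broadly expressed family member that is induced early when cells are stimulated. Its brightest probe set (1433508_at) read 10.44, 10.27 and 10.63 on the control arrays and 10.002, 9.862 and 10.321 with E47. The groups overlapped because experiment 3 was the highest in both, while each E47 array was below the control of its own experiment.

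The pair differences of 1433508_at were -0.44, -0.41 and -0.31, with a mean of -0.39 ± 0.07 (SD, n = 3 pairs). The most even probe set, 1418280_at, was below its control by nearly the same amount each time (-0.31 in all 3 pairs), a mean of -0.31 ± 0.003. Its levels were 8.08, 8.07 and 8.57 on the control arrays and 7.77, 7.75 and 8.27 with E47, so experiment 3 stood higher in both groups. Probe sets 1427742_a_at and 1447448_s_at had means of -0.27 ± 0.10 and -0.30 ± 0.07. The fifth, 1459718_x_at, gave -0.41, -0.53 and 0.07. The suffixes s and x mark probe sets whose probes can match other transcripts too. All 5 stayed negative under every other setting that was tried for them, between -0.51 and -0.15.

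Klf7 and Klf3 showed no common direction over the pairs. Klf7 is studied mostly in neurons. Its brightest probe set (1419354_at) read 8.32, 8.40 and 8.39 on the control arrays and 8.14, 8.23 and 8.46 with E47, with a mean difference of -0.09 ± 0.14 (SD, n = 3 pairs). Experiments 1 and 2 were lower in E47 and experiment 3 was not. The means of all 4 Klf7 probe sets lay between -0.18 and -0.05, and 1 of the 4, 1419355_at, was lower in all 3 pairs (-0.19, -0.27 and -0.02).

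Klf3, the CtBP-dependent repressor, had 7 probe sets with mean differences between -0.12 and 0.10. The brightest (1454666_at) read 8.11, 9.21 and 8.43 on the control arrays and 7.99, 8.87 and 9.01 with E47, and its pairs gave -0.12, -0.34 and 0.58. The groups overlapped across most of their range. The 1 Klf3 probe set that was higher in all pairs, 1442920_at (0.23, 0.04 and 0.03), was below the array median on all 6 arrays. Correlations between Klf3 probe sets over the 6 arrays ran from -0.42 to 0.96, against 0.80 to 0.99 for Klf6 and 0.70 to 1.00 for Klf7, so the 7 do not report 1 pattern.

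**Figure D3:**
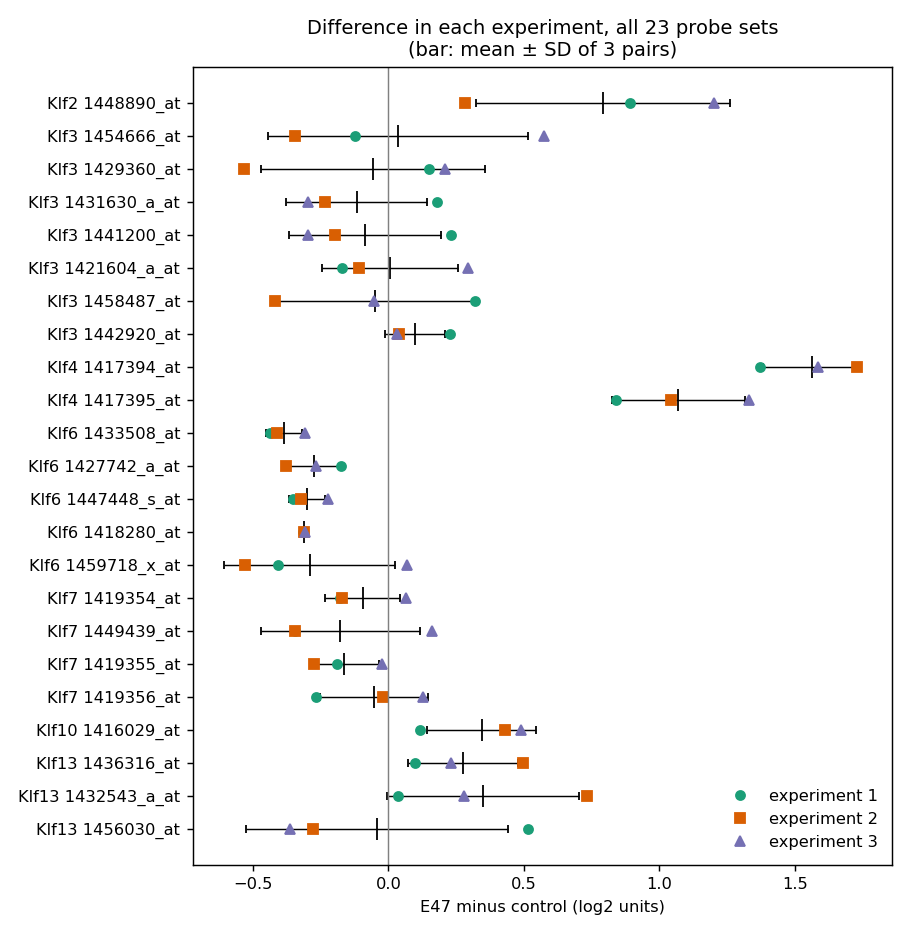
E47 minus control in each of 3 experiments for all 23 probe sets, in log2 units, with bars for the mean ± SD of the 3 pairs. Klf4 lies at 0.84 or above in every pair, 4 of 5 Klf6 probe sets are below 0 in every pair, and those of Klf3 scatter on both sides of 0.

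Over the family, 7 of the 23 probe sets were higher in E47 in all 3 pairs (13.5% of all probe sets were), 5 were lower in all 3 (17.5% of all) and 11 were mixed. E47 arrays lay above control arrays without overlap in 3 of 23, both Klf4 probe sets and Klf10 (4.57% of all probe sets). They lay below without overlap in 0 of 23 (6.65% of all). The median difference of the 23 was -0.05, and that of all probe sets was -0.02. Of the 5 that were lower in all pairs, 4 were Klf6 probe sets and 1 was a Klf7 probe set. The 7 that were higher belonged to Klf2, Klf3, Klf4, Klf10 and Klf13. These counts describe the contrast by which the family was chosen, and probe sets of 1 gene are not independent.

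Experiments were compared next, in the same fit, to ask how the factors vary between cultures whatever the construct. This contrast was not used to choose the family. Klf2 differed between the 3 experiments (F test of the experiment in limma, adjusted p = 0.0391), and it was the 1 of 23 probe sets that passed, where 0.604% of all probe sets did. Its level in experiment 2 was above the mean of experiments 1 and 3 by 2.37 in control (5.17-fold) and by 1.60 in E47 samples (3.04-fold). The direction was thus the same in both groups.

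The Klf2 call needed both arrays of experiments 2 and 3. With 1 array left out, a check added after the data had been seen, its adjusted p was 0.164 without the control array of experiment 2 and 0.142 without the E47 array. For experiment 3 these were 0.183 and 0.158, and for experiment 1 they were 0.0111 and 0.0107. In the 4 fits that lacked an array of experiment 2 or 3, at most 1 of all probe sets passed.

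No other member passed this test. Klf13 was also higher in experiment 2, by 0.50 in control and 0.83 in E47 samples for 1436316_at, with an adjusted p of 0.137. The closest of the rest was the Klf3 probe set 1421604_a_at (adjusted p = 0.0703), whose lowest values were those of experiment 1. Klf4 differed little between experiments (adjusted p = 0.494 and 0.732), by 0.13 in control and 0.38 in E47 samples for the brighter probe set. Age and the mice used changed with each experiment and cannot be told apart from it. The number of mice pooled was 3 in experiments 1 and 2 and 4 in experiment 3.

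Summed markers of other lymphocytes were also compared between experiments. The summed intensity of the 3 matched NK markers, on a log2 scale, was 7.34, 8.85 and 6.95 on the control arrays and 7.40, 8.43 and 7.15 with E47. That of the 2 CD8 markers was 7.47, 7.71 and 7.13 on the control arrays and 7.58, 8.35 and 7.56 with E47. Both sums were highest in experiment 2 in each group. So was that of the B cell markers, with 7.35, 7.66 and 7.43 on the control arrays and 7.32, 7.53 and 7.23 with E47. Of the NK markers only Klrd1, and of the B cell markers only Cd22, lay above the array median on every array. The CD4 T cell sum ran from 13.91 to 14.16 in control and from 13.95 to 14.10 in E47 samples, and the myeloid sum from 7.85 to 7.93 and from 7.67 to 7.82. The cells had been isolated as CD4+CD25- and sorted as CD4+Thy1.1+. The part of NK, CD8 or B cells in the Klf2 level was not tested.

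**Figure D4:**
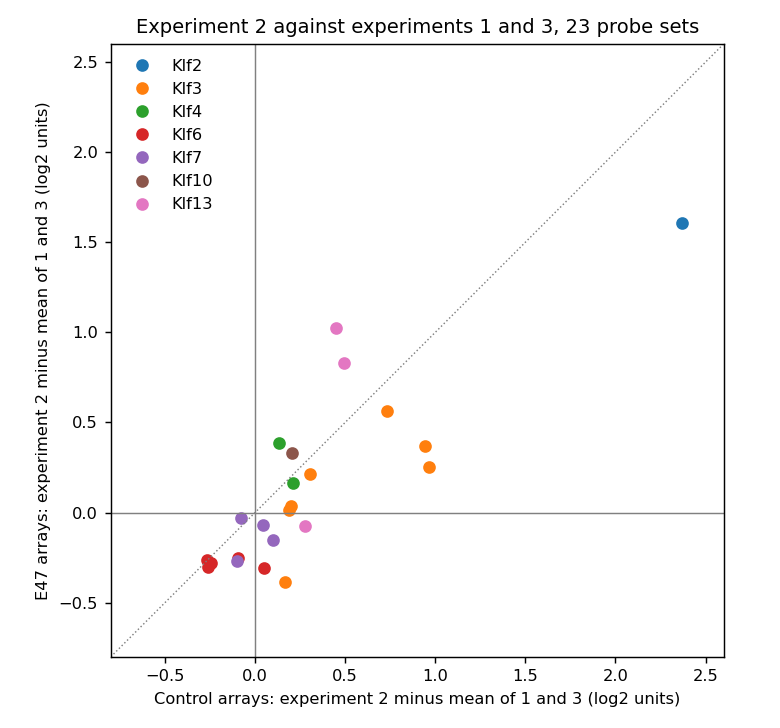
Level in experiment 2 minus the mean of experiments 1 and 3, in log2 units, for the 23 probe sets, in control arrays (horizontal) and E47 arrays (vertical); the dotted line marks equal values. Klf2 stands apart at 2.37 and 1.60, and the Klf6 probe sets lie near or below 0.

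T cell genes linked to Kruppel-like factors, most of them known targets, were a list with 27 genes measured by 40 probe sets. In the paired fit 4 of the 40 probe sets rose (Cxcr5, Lgals3, Il4 and Eomes) and 0 fell. Of all probe sets 0.238% rose and 0.0333% fell. The list was chosen with earlier results of these data known, so its count is a description and supports no enrichment. The list's median difference was 0.03, against -0.02 over all probe sets.

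Lgals3 encodes galectin-3 and is known as a gene that Klf3 represses. It read 10.66, 11.14 and 9.46 on the control arrays and 12.04, 13.06 and 11.28 with E47. Each E47 array was above its own control, and all E47 arrays were above all control arrays. The log2 fold change was 1.71 (SE 0.13, limma adjusted p = 0.0120), beside a Klf3 difference of 0.04 at its brightest probe set.

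Eomes, a T-box factor of memory and CD8 T cells, read 5.30, 6.59 and 5.80 on the control arrays and 6.39, 7.43 and 6.80 with E47 at 1435172_at. It was higher in E47 in each pair, although the groups overlapped (log2 fold change 0.98, SE 0.09, limma adjusted p = 0.0264). At 1426001_at the difference was 0.60 and did not pass (adjusted p = 0.153). The CD8 marker sum given above was also higher in E47 than in control in each pair. The cells had been isolated and sorted as CD4+, and the part of CD8 cells in the Eomes value was not tested.

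Il4, which encodes interleukin-4, changed by 1.46 on the log2 scale (SE 0.11, limma adjusted p = 0.0150), and Cxcr5, the follicular homing receptor, by 4.11 (SE 0.09, limma adjusted p = 5.02e-04). Cxcr5 was below the array median on all 3 control arrays (4.59, 4.52 and 4.59), so the size of its rise is uncertain, and it was 3.43 with 16 added before log2. Cxcr5 passed under each of the other settings. Without the pairing the adjusted p of Lgals3 was 0.756 and that of Eomes 0.804, while Il4 passed (0.00926). Without replicate 2 the paired calls of Lgals3 (0.0969), Il4 (0.131) and Eomes (0.147) were lost, and without replicate 3 these were 0.234, 0.234 and 0.338.

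The 2 closest genes that did not pass were Il7r, the IL-7 receptor chain (log2 fold change 0.56, SE 0.09, limma adjusted p = 0.114), and Tgfb1 (log2 fold change -0.48, SE 0.08, limma adjusted p = 0.155). The other probe set of Il7r gave 0.61 and that of Tgfb1 gave -0.04. S1pr1, the lymph node exit receptor that Klf2 drives, is named here after its values were seen. It read 6.41, 6.75 and 6.39 on the control arrays and 6.19, 6.72 and 6.43 with E47, a log2 fold change of -0.07 (SE 0.09, limma adjusted p = 0.845). Its groups overlapped, as those of Klf2 did. S1pr1 was higher in experiment 2 than the mean of the others by 0.35 in control and 0.41 in E47 samples, but did not pass the F test between experiments (adjusted p = 0.283).

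Between experiments 4 of the 40 probe sets passed the F test, for Lgals3, Eomes, Foxp3 and Itgb7, the integrin chain of gut homing (0.604% of all probe sets). All 4 were higher in experiment 2 than the mean of the others, by 1.24, 0.94, 1.71 and 0.93. Foxp3 and Itgb7 are named after their values were seen. Klf2 was thus high in the experiment in which the Treg lineage factor Foxp3 was also high. The summed Treg markers were lowest there, with 13.91, 13.78 and 13.83 on the control arrays and 13.729, 13.545 and 13.74 with E47. That sum adds linear intensities, so bright probe sets weigh most and a rise of Foxp3 can be hidden in it. The share of Treg cells was not tested.

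Proteins that bind, degrade or induce Kruppel-like factors were a list of 18 genes with 43 probe sets. None passed between E47 and control in limma's paired fit (0 of 43, against 0.271% of all probe sets). With so low a share, 0 of 43 says little about the list. Foxo1, which induces Klf2, was the closest, with 8.24, 8.41 and 8.10 on the control arrays and 8.82, 9.36 and 8.70 with E47 at 1416982_at. The groups did not overlap (log2 fold change 0.71, SE 0.11, limma adjusted p = 0.111).

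The other 3 Foxo1 probe sets gave differences of 0.63, 0.50 and, for the dimmest, -0.10. Mef2d, a MEF2 factor, had a log2 fold change of 0.56 (SE 0.17, limma adjusted p = 0.444). It read 7.91, 7.87 and 7.34 on the control arrays and 8.04, 8.87 and 7.88 with E47. The other Mef2d probe sets gave 0.26 and 0.08. Foxo1 passed in limma without replicate 1 (adjusted p = 0.0482) and with a trended, robust variance (0.00633), and missed the threshold in the other settings that measured this probe set (0.0667 to 1.00). Between experiments 1 of the 43 passed, against 0.604% of all probe sets. It was a Crebbp probe set whose mean was 8.60 in experiment 1, 9.57 in experiment 2 and 9.58 in experiment 3. Its lowest experiment was thus the first, unlike the pattern of Klf2.

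In the rest of the Kruppel-like and SP family, 16 of 19 listed genes were matched by 36 probe sets, and Klf8, Sp2 and Sp9 were not analysed here. In limma's paired fit 0 of 36 passed, against 0.271% of all probe sets, so the 0 says little. The differences ran from -0.38 to 0.38 with a median of -0.05. Klf9, a family member induced by glucocorticoids, was the closest. It read 9.17, 9.16 and 9.08 on the control arrays and 8.80, 8.78 and 8.70 with E47 at 1456341_a_at, and all E47 arrays were below all control arrays. Its log2 fold change was -0.38 (SE 0.08, limma adjusted p = 0.245), and those of its other 6 probe sets lay between -0.26 and 0.16. Sp6 had a log2 fold change of 0.38 at 1437788_at (SE 0.11, limma adjusted p = 0.411). Its other probe sets gave -0.15, -0.10 and 0.04. Between experiments 0 of the 36 passed the same F test (0.604% of all probe sets did).

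**Figure D5:**
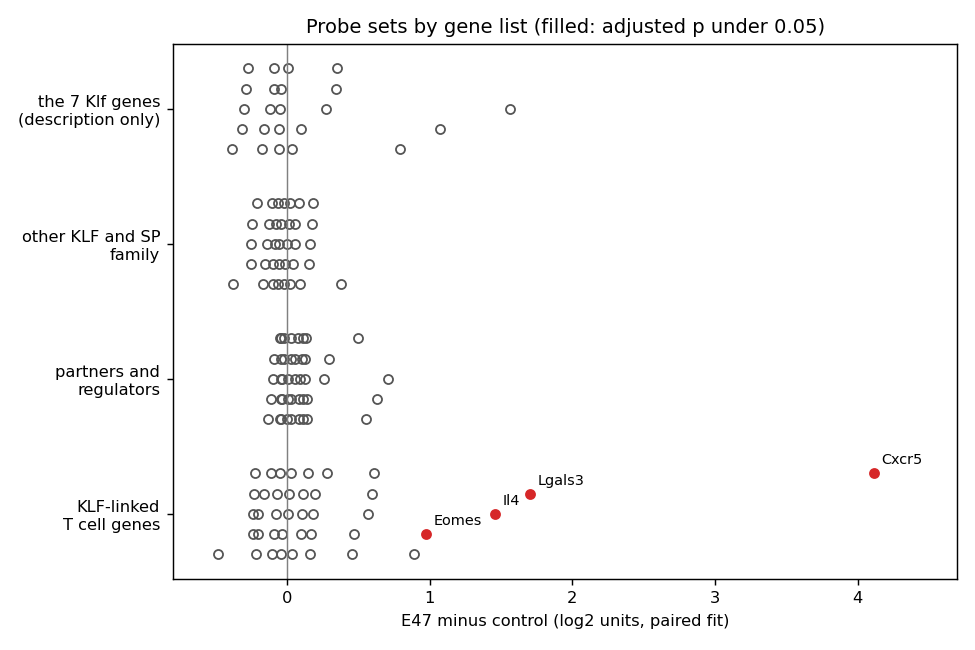
E47 minus control in log2 units for each probe set of the 7 Klf genes and 3 related gene lists, with vertical spread only to separate points; filled red points of the 3 lists passed an adjusted p of 0.05 in limma's paired fit. The filled points are Cxcr5, Lgals3, Il4 and Eomes; the 7 Klf genes are drawn open throughout, as a description.

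Each factor was also compared with all other genes by its pattern over the 6 arrays, as Pearson's r between brightest probe sets among 2404 or 2405 genes with an SD of at least 0.25. The arrays share experiments and constructs, so these are descriptions. The Klf4 pattern was most like those of Cxcr4 (r = 0.996), the receptor for CXCL12, Cidea (0.993), a lipid droplet protein, and Gpr25 (0.993), an orphan receptor, whose differences were 2.08, 3.33 and 1.24. Klf6 was most like Tnfaip3 (0.991), the NF-kB inhibitor A20, Tmtc2 (0.990) and Ahr (0.975), the aryl hydrocarbon receptor, with differences of -0.48, -0.76 and -0.41.

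The Klf2 pattern, set by experiment 2, was most like Rfc4 (0.997), a clamp loader of DNA replication, Pou6f1 (0.994) and Selenop (0.988), whose differences were 0.21, 0.23 and 0.27. For Klf13 these were Tle1 (0.996), Cyp39a1 (0.992) and Parp6 (0.992), and for Klf10 Camk1d (0.992), Kbtbd7 (0.992) and the Ets factor Fli1 (0.991). Klf3 was most like Idh1 (0.975), H2-Q5 (0.965) and Acss2 (0.962). Klf7, which varied least (SD 0.12), was most like Ghrh (0.940), Adcy6 (0.940) and Mgat5 (0.919). Among the members themselves Klf2 and Klf13 were the most alike (r = 0.90), Klf4 was most like Klf10 (0.85) and Klf6 ran against Klf10 (-0.84) and Klf4 (-0.79).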

How the data were processed

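The authors deposited an intensity for each probe set on each array, made with RMA per the submitters' processing notes, which name no version. This method removes background, gives all arrays the same distribution and joins the probes of a set into 1 value, so a shift of all genes at once would be lost. The values were linear, and log2 was taken. Detection above background was not tested. Of 45101 probe sets, 64 Affymetrix controls were left out. Of the 45037 tested, 34945 had 1 gene symbol, 932 had several and 9160 are unnamed here.

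The fit was limma 3.58.1 in R 4.3.3 (lmFit, eBayes, two-sided) over all probe sets, with group and experiment as terms and Benjamini-Hochberg adjustment at 0.05. It was also run on simulated data with independent probe sets, a simpler setting than these arrays, so that run says nothing about the calls given here. The design text gives independent experiments with 1 sample of each group, and the pairing rests on that. Deviations from the group means of same-numbered arrays correlated at 0.09, 0.52 and 0.31. Precision is limited by having 3 arrays in each group.

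The family and the lists were chosen with earlier results of these data known. Named genes were all 7 factors, up to 4 that passed and 2 that did not from each list by lowest p, and the 3 most similar patterns for each factor, with exceptions stated. For a gene with several probe sets the one with the highest mean stood for it. Alternatives were no block and a random block, median centring, quantile normalization, adding 16 before log2, brighter probe sets, 1 row per gene, a trended robust variance and leaving out arrays or pairs.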

Additional observations from a re-analysis of the deposited data

How the results depend on the processing

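Without the replicate block 52 probe sets passed between E47 and control, in place of 122, and 2 of the KLF-linked probe sets in place of 4, the same number as with a random block. The main fit tested 45037 probe sets, and 2 settings tested fewer, so their counts have another base. With 1 row per gene 208 of 18193 passed between groups, and 582 between experiments, where the main fit had 272 of 45037. Among the 22518 probe sets brighter than the median 609 passed between experiments. Of these 2 were in the 7 Klf genes, in place of 1. With a trended, robust variance 574 of 45037 passed between groups and 1813 between experiments. These included 1 of the other family, 2 of the partners, 10 of the KLF-linked genes and, between experiments, 7 of the 23 Klf probe sets. Leaving out arrays or pairs gave 4 to 551 probe sets between E47 and control (4 without replicate 3, 34 without replicate 2, 551 without replicate 1), 0 to 2 partners and 1 to 6 KLF-linked probe sets. Between experiments, 0 to 999 passed with 1 array left out, and 0 to 2 of the Klf probe sets. The split of 107 higher and 15 lower became 52 and 0 without the block, 142 and 66 with 1 row per gene, 121 and 22 after quantile normalization, 96 and 25 with 16 added, and 365 and 209 with the robust variance. Of the differences of the 7 Klf genes, 347 values under other settings lay within 1 SD of the pairs and 26 did not. None of the 10 genes named from the lists by rule changed direction, and the other genes named were not run under these settings. With 3 arrays per group, the mean difference was smaller than the SD of the pairs at all 7 Klf3 probe sets and at 3 of 4 of Klf7.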
